A study of Saccharomyces cerevisiae with 4 samples.

Results

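The PAU, DAN and TIR genes of the budding yeast Saccharomyces cerevisiae encode mannoproteins of the cell wall and relatives of them. They were taken as all rows of the deposited expression table with a gene name of the form PAU plus a number, DAN1 to DAN4 or TIR1 to TIR4. This gave 30 of 7130 rows, made up of 24 PAU, 2 DAN and 4 TIR genes, and this rule reads names alone. DAN2 and DAN3 are older names of PAU23 and PAU24 in the RefSeq gene table of the assembly R64. The libraries hold total RNA depleted of ribosomal RNA, from cells labelled Asr1-RING (2 libraries) and cells labelled wild type (WT, 2 libraries), all grown in rich medium and harvested in log phase. Asr1 is a ubiquitin ligase with a RING finger that modifies RNA polymerase II, and the Asr1-RING cells carry a mutant form of that RING. The labels do not give the strain, the exact change in the RING or whether replicates are separate cultures; the p-values therefore reflect spread between libraries that may be technical only.

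Yeast makes many DAN, TIR and PAU transcripts mainly when oxygen or heme is scarce, and the TIR genes also in the cold. In aerated cells the repressors Rox1 and Mot3, with the corepressor of Tup1 and Cyc8, hold many of these genes down. When sterol or oxygen is low the activator Upc2 binds short promoter elements, among them the anaerobic response element AR1 of the DAN and TIR genes. The PAU family, the seripauperins, is a large gene family with members at many chromosome ends, where silencing by the Sir proteins can act.

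Levels are FPKM, the fragments of a gene per kilobase of its length and per 1e6 fragments mapped. Depths estimated from the steps between low values were, in units of 1e6 fragments, 43.8 and 45.4 in Asr1-RING replicates 1 and 2, and 47.6 and 41.1 in WT replicates 1 and 2. At these depths a count of 3 fragments on a row of 363 bp, the usual PAU length, is 0.431 and 0.416 FPKM in Asr1-RING and 0.396 and 0.459 FPKM in WT, a floor that covers counting error only. Open reading frames (ORFs) summed to 1844000 and 1874000 FPKM in Asr1-RING and to 1857000 and 1878000 FPKM in WT. All other rows, tRNAs and snoRNAs among them, summed to 1899000 and 1903000 FPKM in Asr1-RING and to 3513000 and 2992000 FPKM in WT. The summed FPKM of these rows thus differed between the groups. FPKM is divided by gene length, so such sums are not shares of fragments. ASR1 itself was at 4.99 and 5.39 FPKM in Asr1-RING and at 7.05 and 6.34 FPKM in WT, and a value per gene cannot show a change within its coding sequence. Alpha-cell marker genes lay between 337 and 4300 FPKM and a-cell marker genes between 2.4 and 67.2 FPKM over the 4 libraries.

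The coding sequences show which of these genes can be told apart by short reads. The first 75 bases of 6 PAU genes, of TIR1 and of DAN1 are given 5′ to 3′ from the R64 assembly, found by gene identifier, and within the PAU sequences capitals mark bases that differ from PAU1.
PAU14: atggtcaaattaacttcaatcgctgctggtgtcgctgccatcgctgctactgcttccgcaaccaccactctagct
PAU1: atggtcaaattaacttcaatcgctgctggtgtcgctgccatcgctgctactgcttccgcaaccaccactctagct
PAU13: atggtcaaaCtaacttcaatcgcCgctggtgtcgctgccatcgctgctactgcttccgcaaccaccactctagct
PAU12: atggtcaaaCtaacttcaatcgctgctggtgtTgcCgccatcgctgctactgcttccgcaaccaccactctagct
PAU2: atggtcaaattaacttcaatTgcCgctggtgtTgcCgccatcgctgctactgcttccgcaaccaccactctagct
PAU5: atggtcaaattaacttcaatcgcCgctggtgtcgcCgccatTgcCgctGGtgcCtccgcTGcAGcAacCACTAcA
TIR1: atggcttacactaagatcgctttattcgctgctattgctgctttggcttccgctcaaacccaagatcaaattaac
DAN1: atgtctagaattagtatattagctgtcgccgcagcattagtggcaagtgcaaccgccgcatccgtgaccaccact
PAU14 had 0 bases different from PAU1 in this stretch, PAU13 had 2, PAU12 had 3, PAU2 had 4 and PAU5 had 18. Over whole coding sequences, the 13 PAU genes of 363 bp were 92.6% to 100% identical to each other, with a median of 96.4% over 78 pairs. The pairs PAU1 and PAU14, PAU6 and PAU18, and PAU21 and PAU22 were identical. No PAU gene was more than 39.7% identical to a TIR gene or 30.4% to a DAN gene, and the most alike TIR genes, TIR1 and TIR2, were 72.7% identical. These shares are over whole end-to-end alignments with gaps counted as differences, so unlike lengths alone lower them. The PAU genes are shorter than the DAN and TIR genes, so the values between families do not measure how alike their shared parts are.

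A window of 50 bases was called unique if it occurred once in the R64 genome on either strand. The median share of unique windows was 26.5% over the 24 PAU genes and 93.5% over the 6 DAN and TIR genes. In PAU1, PAU14, PAU6, PAU18, PAU21, PAU22 and PAU9 the share was 0%, so a read of 50 bases within them fits elsewhere as well. Longer reads, and fragments that reach past a row, were not looked at. The rule by which the authors' programs shared out reads with several matches is not stated in the labels. PAU1 and PAU14 were listed with equal values in every library, as were PAU21 and PAU22, so each pair holds a single measurement. DAN1, TIR2, TIR3 and PAU7 were unique in 100% of windows, TIR1 in 87%, DAN4 in 80.1% and TIR4 in 79.8%.

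Levels were low in most of the family and spanned a wide range. TIR1 (YER011W, chromosome V, 175247 to 176011), a cell wall mannoprotein known for induction by cold and by lack of oxygen, had the highest level, at 95.3 and 108 FPKM in Asr1-RING and 113 and 125 FPKM in WT. The median gene of the PAU family was at 1.87 and 1.9 FPKM in Asr1-RING and 1.75 and 2.01 FPKM in WT, against 21.4 and 21.7 FPKM in Asr1-RING and 21.2 and 19.9 FPKM in WT for the median of all rows. The highest PAU levels were those of PAU7 and PAU9, whose rows of 168 and 129 bp are shorter than the 204 bp taken as the fragment length, so these 2 levels are uncertain. Next came PAU2 with a mean of 9.83 FPKM, PAU23 with 8.65 and PAU17 with 8.38 FPKM over the 4 libraries. The lowest was PAU16 at 0.205 and 0.157 FPKM in Asr1-RING and 0.124 and 0.144 FPKM in WT. Above it came PAU15 with a mean of 0.284 FPKM, at 0.335 and 0.154 FPKM in Asr1-RING and 0.366 and 0.282 FPKM in WT. PAU19 had a mean of 0.309 FPKM, at 0.324 and 0.208 FPKM in Asr1-RING and 0.234 and 0.47 FPKM in WT. PAU16 corresponds to about 1.5 and 1.2 fragments in Asr1-RING and 1 and 1 in WT, which is below the floor in every library.

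**Figure D1:**
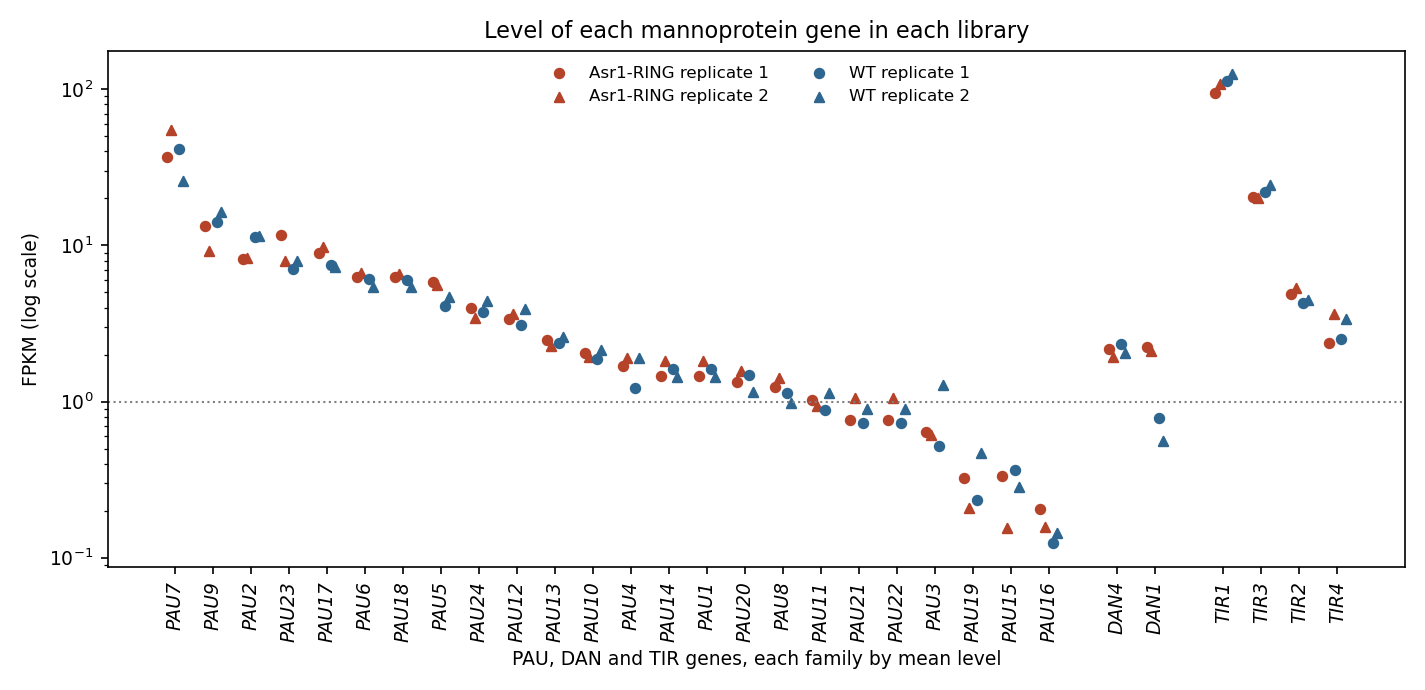
FPKM of each of the 30 genes in each library on a log axis, with PAU, DAN and TIR genes in separate blocks ordered by mean level; red points are Asr1-RING, blue points WT, circles replicate 1 and triangles replicate 2, and the dotted line is at 1 FPKM. TIR1 lies near 110 FPKM and PAU16 near 0.157 FPKM, and DAN1 is the gene whose groups stand farthest apart, at 2.25 and 2.1 FPKM in Asr1-RING and 0.783 and 0.558 FPKM in WT.

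For the effect of the mutation, limma's moderated test was run on log2(FPKM + 1), a scale on which changes of low genes look smaller, over rows whose mean was 1 FPKM or more. Of the 30 genes 23 passed this filter and 7 did not, all of them PAU genes (PAU3, PAU11, PAU15, PAU16, PAU19, PAU21 and PAU22). At an adjusted p under 0.05, 1 of the 23 rose, 0 fell and 22 did not pass; 4 had an unadjusted p under 0.05. Over all 6892 rows tested 1.89% rose and 4.95% fell, and an unadjusted p under 0.05 was reached by 26.4%. Among the 6517 tested ORF rows, the class to which all 30 genes belong, 1.95% rose and 0.921% fell, and 23.0% had an unadjusted p under 0.05; the falls over all rows were mostly of rows other than ORFs. The single call among 23 genes is therefore a result about DAN1 and not about the families. The median log2 difference was 0.08 over the 17 tested PAU genes and -0.03 over the 6 DAN and TIR genes, against 0.02 over all rows. In 21 of the 23 the 95% interval of the difference lay within 1 log2 unit of 0 on either side, the exceptions being DAN1 and PAU7. The same held for 6313 of 6892 tested rows and for 6255 of 6517 tested ORF rows. On this scale 1 unit is a larger ratio for low genes: DAN1, with a ratio of 3.25, had a difference of 0.93.

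DAN1 (YJR150C, chromosome X, 708801 to 709697), a cell wall mannoprotein that aerated cells repress, was the gene that rose. Its level was 2.25 and 2.1 FPKM in Asr1-RING, against 0.783 and 0.558 FPKM in WT, so the groups did not overlap. The mean was 2.18 ± 0.11 FPKM in Asr1-RING and 0.67 ± 0.159 FPKM in WT (SD, n = 2 each), a ratio of 3.25. The log2 difference was 0.93 (SE 0.151, 95% interval 0.56 to 1.3, limma adjusted p = 0.0225). The levels correspond to about 68.4 and 66 fragments in Asr1-RING and 25.8 and 15.9 in WT, all above the floor of 3. The WT mean alone lies under the filter of 1 FPKM, so DAN1 entered the test through its Asr1-RING level, and it was also called with no filter (adjusted p = 0.0163). Leaving out WT replicate 1 or 2 ended the call (limma adjusted p = 0.0661 and 0.104), as did testing ORF rows alone (0.0513), and leaving out Asr1-RING replicate 1 or 2 did not (0.0191 and 0.032). The log2 difference depended on the pseudocount, at 1.58 with 0.1 and 0.34 with 5.

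The other DAN gene, DAN4 (YJR151C, chromosome X, 712245 to 715730), also a cell wall mannoprotein, is the next row towards the chromosome end and did not pass. It was at 2.16 and 1.93 FPKM in Asr1-RING and at 2.34 and 2.04 FPKM in WT, so the groups overlapped (log2 difference -0.07, 95% interval -0.41 to 0.27, limma adjusted p = 0.789). On the other side of DAN1, YJR149W was at 5.84 and 6.32 FPKM in Asr1-RING and 6.21 and 6.98 FPKM in WT. BAT2, the cytosolic branched-chain aminotransferase, was at 131 and 152 FPKM in Asr1-RING and 113 and 118 FPKM in WT (log2 difference 0.29), and HMS2 and DAL5 had log2 differences of -0.13 and -0.22. Of the rows within 3 places of DAN1, none but DAN1 was called, and YJR151W-A was listed at 0 in all 4 libraries.

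**Figure D2:**
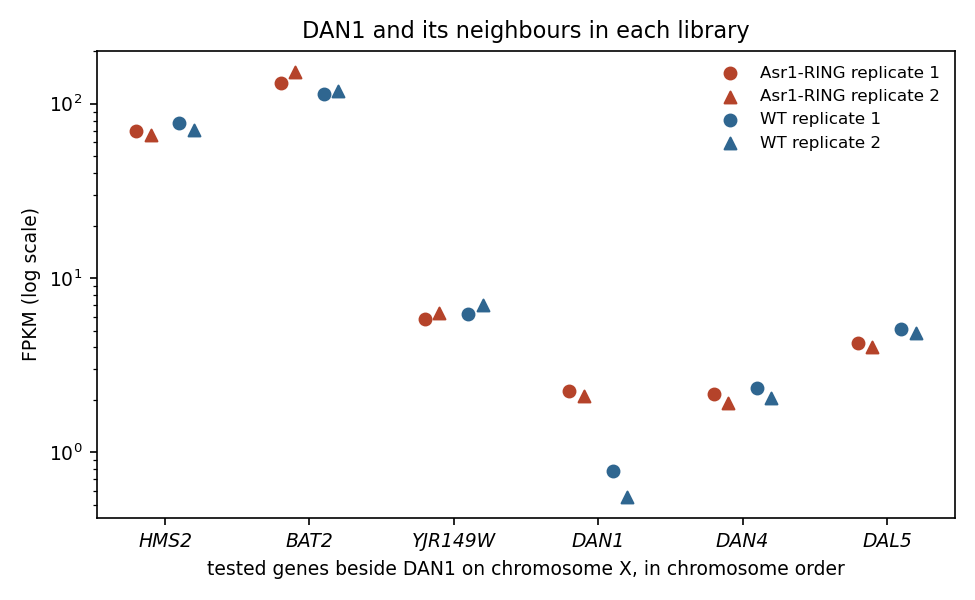
FPKM in each library, on a log axis, of DAN1 and the tested genes within 3 rows of it on chromosome X, in chromosome order; red points are Asr1-RING, blue points WT, circles replicate 1 and triangles replicate 2. The groups do not overlap at DAN1, where the ratio of means is 3.25, and overlap at the adjacent DAN4, where it is 0.934.

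The 300 bases around the start codon of DAN1, from 250 before it to 50 from its first base on, are shown because Upc2 and Rox1 are known to act on this promoter (R64, chrX:709658-709957, minus strand). Capitals mark matches on either strand to TCGTTNAG, the AR1-like element, ATTGTT, the core of the Rox1 site, and TCGTATA, the core of the sterol response element; the 3 matches do not overlap.
DAN1 promoter: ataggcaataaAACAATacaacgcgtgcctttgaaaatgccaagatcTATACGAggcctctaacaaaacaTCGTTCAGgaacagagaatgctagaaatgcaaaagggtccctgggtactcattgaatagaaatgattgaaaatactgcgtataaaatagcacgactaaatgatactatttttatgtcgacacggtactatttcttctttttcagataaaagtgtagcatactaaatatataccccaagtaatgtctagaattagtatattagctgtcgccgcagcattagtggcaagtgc
TCGTTNAG was found in the promoters of 3 of 6 DAN and TIR genes (DAN1, DAN4 and TIR4), in 9 of 24 PAU promoters and in 2.73% of 6001 promoters of all protein-coding genes in windows of the same length. ATTGTT was found in 3 of 6 DAN and TIR promoters, 6 of 24 PAU promoters and 35.2% of all. TCGTATA was found in 2 of 6 DAN and TIR promoters (DAN1 and DAN4), in 1 of 24 PAU promoters (PAU2) and in 4.15% of all. In the 250 bases before the start codon, 19 of the 24 PAU promoters shared at least 1 stretch of 50 bases with another PAU promoter, so their matches are not independent. DAN4 and TIR4 hold TCGTTNAG as DAN1 does and were not called, with log2 differences of -0.07 and 0.01. DAN1 holds all 3 motifs, while DAN4 lacks ATTGTT and TIR4 lacks both ATTGTT and TCGTATA. A link between these motifs and the differences was not tested.

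None of the 4 TIR genes passed the test. TIR1 had a log2 difference of -0.23 (95% interval -0.5 to 0.04, limma adjusted p = 0.245), and its Asr1-RING values of 95.3 and 108 FPKM were below both WT values. TIR3 (YIL011W, chromosome IX, 333724 to 334533), a cell wall mannoprotein needed for anaerobic growth, was at 20.4 and 20.2 FPKM in Asr1-RING and 22 and 24.5 FPKM in WT (log2 difference -0.19, limma adjusted p = 0.287). TIR2 (YOR010C, chromosome XV, 346195 to 346950), a relative of TIR1, was at 4.87 and 5.31 FPKM in Asr1-RING and 4.25 and 4.46 FPKM in WT (log2 difference 0.18, limma adjusted p = 0.353). TIR4 (YOR009W, chromosome XV, 344335 to 345798) was at 2.37 and 3.64 FPKM in Asr1-RING and 2.53 and 3.37 FPKM in WT, with overlapping groups (log2 difference 0.01, limma adjusted p = 0.985). The means of TIR1 and TIR3, the most abundant TIR genes, were thus lower in Asr1-RING and that of TIR2 higher, none beyond the threshold. AUS1, a sterol importer of anaerobic cells in the row after TIR2, was at 22.4 and 22.3 FPKM in Asr1-RING and 25.2 and 25.1 FPKM in WT and was not called (log2 difference -0.16).

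None of the 17 tested PAU genes passed. The nearest to the threshold was PAU2 (YEL049W, chromosome V, 63728 to 64090), at 8.19 and 8.34 FPKM in Asr1-RING against 11.3 and 11.5 FPKM in WT. The groups did not overlap and the WT mean was 1.38 times the Asr1-RING mean (log2 difference -0.42, SE 0.0968, 95% interval -0.66 to -0.18, limma adjusted p = 0.0614). With libraries centred on a common ORF median PAU2 was called lower (log2 difference -0.49, adjusted p = 0.038). PAU2 lies 3 rows from SNR67, with SNR53 and the glycine tRNA tG(GCC)E between them, and all 3 small RNAs were also lower in both Asr1-RING libraries than in both WT libraries, with log2 differences of -0.38, -0.98 and -1.55. This was the usual pattern of such rows, since 87.7% of the 375 tested rows other than ORFs were lower in both Asr1-RING libraries without overlap and 74.9% were called lower. On the other side of PAU2, the ORF rows TCA17, YEL047C and GLY1 had log2 differences of -0.17, 0.17 and -0.09, and none of them was called.

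The PAU genes that lie away from chromosome ends included differences of either sign, none past the threshold. PAU17 (YLL025W, chromosome XII, 94746 to 95120) was at 8.92 and 9.71 FPKM in Asr1-RING and 7.55 and 7.33 FPKM in WT (log2 difference 0.29, limma adjusted p = 0.154). PAU5 (YFL020C, chromosome VI, 99225 to 99593) was at 5.84 and 5.6 FPKM in Asr1-RING and 4.1 and 4.67 FPKM in WT (log2 difference 0.32, limma adjusted p = 0.159). Both had unadjusted limma p-values under 0.05, at 0.0344 and 0.0365, and groups that did not overlap. PAU23 (YLR037C, chromosome XII, 222686 to 223060) was at 11.7 and 7.91 FPKM in Asr1-RING and 7.07 and 7.9 FPKM in WT, so its difference of 0.33 came mainly from Asr1-RING replicate 1 (limma adjusted p = 0.311, and 0.0446 without Asr1-RING replicate 2). PAU7 (YAR020C, chromosome I, 176854 to 177021) had overlapping groups, at 37 and 54.7 FPKM in Asr1-RING and 41.3 and 25.9 FPKM in WT (log2 difference 0.45, 95% interval -0.22 to 1.11, limma adjusted p = 0.338).

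Among PAU genes near chromosome ends, PAU9 (YBL108C-A, chromosome II, 7605 to 7733) was at 13.3 and 9.2 FPKM in Asr1-RING and 14.1 and 16.5 FPKM in WT (log2 difference -0.42, limma adjusted p = 0.212, and 0.0192 without Asr1-RING replicate 1). The identical genes PAU18 and PAU6 were both at 6.26 FPKM in Asr1-RING replicate 1 and both at 5.4 FPKM in WT replicate 2, with 6.55 and 6.68 FPKM in Asr1-RING replicate 2 and 6.01 and 6.14 FPKM in WT replicate 1. Each had a log2 difference of 0.14 (limma adjusted p = 0.452 for PAU18 and 0.468 for PAU6). The other 9 tested PAU genes, PAU1, PAU4, PAU8, PAU10, PAU12, PAU13, PAU14, PAU20 and PAU24, had differences from -0.12 for PAU24 to 0.17 for PAU8. PAU24 and PAU12 each overlap another row, YBR300C and YGR293C, and with strand handling unknown the reads of such overlapping rows may be mixed. Summed over the 13 PAU genes of 363 bp, the level was 40.76 and 42.26 FPKM in Asr1-RING and 42.45 and 43.38 FPKM in WT. PAU2 set the order of these sums, which without it were 32.58 and 33.91 FPKM in Asr1-RING and 31.18 and 31.84 FPKM in WT. Of the 50-base windows of these 13 genes that occur more than once in R64, 46.1% also occur outside the 13, so the sums do not hold all shared reads.

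**Figure D3:**
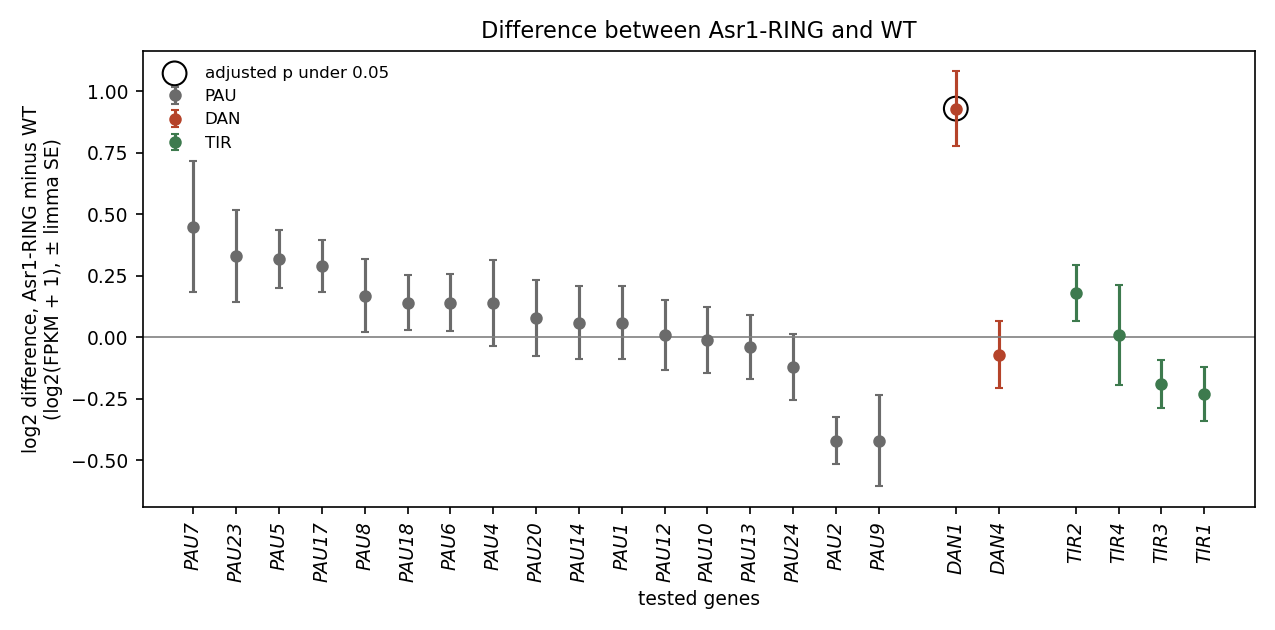
Log2 difference of log2(FPKM + 1), Asr1-RING minus WT, for the 23 tested genes, with limma standard errors as bars and families in separate blocks; the black ring marks an adjusted p under 0.05. DAN1 at 0.93 stands above all others, and the PAU genes run between 0.45 for PAU7 and -0.42 for PAU2 and PAU9.

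Without overlap between the groups, 8 of the 23 tested genes were higher in both Asr1-RING libraries and 4 lower in both. Over all tested rows the shares were 33.0% higher and 27.2% lower, and over ORF rows 34.8% higher and 23.7% lower, so such a pattern is common in the whole table. By family the counts were 6 higher and 2 lower of 17 for PAU, and 2 higher and 2 lower of 6 for DAN and TIR. The 6 include the identical genes PAU6 and PAU18, and the 17 also include PAU1 and PAU14. The PAU genes counted are thus not all separate measurements.

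Most PAU genes lie near a chromosome end and the TIR genes do not. In R64, 19 of 24 PAU genes lie within 40 kb of a chromosome end, as do DAN4 at 30 kb and DAN1 at 36 kb, while the TIR genes lie from 105.4 kb (TIR3) to 346.2 kb (TIR2) inwards. The 5 PAU genes farther in, PAU7, PAU2, PAU17, PAU5 and PAU23, at 53.2 to 222.7 kb, had mean levels from 5.05 to 39.7 FPKM with a median of 8.65 FPKM. The 19 near ends ranged from 0.157 to 13.3 FPKM with a median of 1.58 FPKM. The shares of unique windows differed along with this, with a median of 91.4% in the 5 inner genes and 22% in the 19 near ends, and the part of read sharing in the levels was not tested. All 7 untested PAU genes are near an end.

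The difference between Asr1-RING and WT was read beside position as well. The 12 tested PAU genes near ends had 0 calls and a median log2 difference of 0.06. Other tested ORF rows within 40 kb of an end gave 15 higher and 4 lower calls of 498, with a median of 0.07. Over all tested ORF rows 1.95% were called higher and 0.921% lower. The 5 inner PAU genes had 0 calls and a median of 0.32, with 4 above 0 and PAU2 below. Other tested ORF rows farther in gave 102 higher and 36 lower calls of 5387, with a median of 0.03. Among the inner PAU genes above 0, PAU7 had overlapping groups and the difference of PAU23 came mainly from Asr1-RING replicate 1. The log2(FPKM + 1) scale shrinks differences of low genes, and the PAU genes near ends were lower, so the medians of the PAU groups are not on equal terms.

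**Figure D4:**
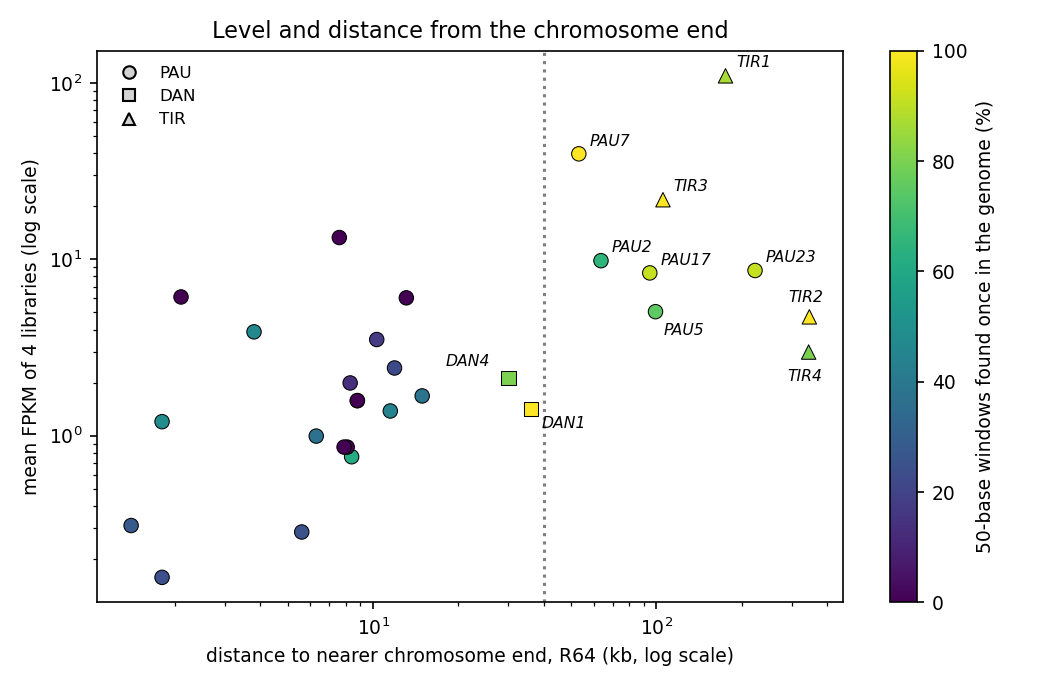
Mean FPKM over the 4 libraries against the distance from the nearer chromosome end in R64, both on log axes, with circles for PAU, squares for DAN and triangles for TIR genes and the colour giving the share of 50-base windows found once in the genome; the dotted line is at 40 kb. The PAU genes near ends reach down to 0.157 FPKM and are mostly dark, with a median of 22% unique windows, and the 5 inner PAU genes all lie at 5.05 FPKM or above.

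Regulators of anaerobic genes in general were looked at in a list of 18 names, all found and tested. The list was not limited to regulators known to act on PAU, DAN or TIR genes. Its name TDS4 was matched as BRF1, the name in the table, which is a subunit of the RNA polymerase III factor TFIIIB. In this list 0 rose, 1 fell and 17 did not pass, with a median log2 difference of 0.03. The fall is 5.56% of the list, beside 4.95% over all rows and 0.921% over ORF rows. Leaving out Asr1-RING replicate 1 leaves 1 library in that group. HAP4, SPT23 and SUT1 then had log2 differences of 1.02, 0.51 and 0.45. They passed the threshold in that fit, which also called more rows over the whole table than the main fit. HAP5, a subunit of the CCAAT-binding Hap complex that activates respiratory genes, fell to 7.09 and 5.46 FPKM in Asr1-RING, against 10.9 and 10.4 FPKM in WT (log2 difference -0.68, limma adjusted p = 0.0467). HAP5 lost its call when WT replicate 1, WT replicate 2 or Asr1-RING replicate 2 was left out (limma adjusted p = 0.324, 0.214 and 0.0543), with no filter (0.0684), with ORF rows alone (0.0662) and with identical rows counted once (0.0563). HAP4, the activating subunit of the same complex, was at 22.2 and 36.6 FPKM in Asr1-RING and 17.8 and 17.3 FPKM in WT and did not pass (limma adjusted p = 0.135). SUT1, a regulator of sterol uptake, was at 33.9 and 39 FPKM in Asr1-RING and 27.6 and 28.7 FPKM in WT (limma adjusted p = 0.108). The repressors, the corepressor genes and the activator that act on DAN1 were not called. Their log2 differences were 0.14 for ROX1, -0.1 for MOT3, 0.19 for TUP1, -0.04 for CYC8 and -0.09 for UPC2.

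Other genes that yeast induces without oxygen gave 1 rise, 0 falls and 24 genes that did not pass, of 25 found among 26 names, with a median of 0.07. The rise is 4% of the list, beside 1.89% over all rows and 1.95% over ORF rows. Without Asr1-RING replicate 1, OLE1, FET4 and SUT1 had log2 differences of 0.75, 0.55 and 0.45. They passed the threshold in that fit, which also called more rows over the whole table than the main fit. FET4, a low-affinity iron transporter, rose to 63.3 and 50.6 FPKM in Asr1-RING, against 35.2 and 33 FPKM in WT (ratio of means 1.67, log2 difference 0.71, limma adjusted p = 0.0355). FET4 lost its call when WT replicate 1 or 2 was left out (limma adjusted p = 0.206 and 0.221), with no filter (0.0571), after quantile normalization (0.0532) and with ORF rows alone (0.0585). AAC3, the anaerobic ADP/ATP carrier, was at 15.9 and 16.7 FPKM in Asr1-RING and 12.4 and 12.6 FPKM in WT and did not pass (limma adjusted p = 0.0831). HEM13, a heme synthesis enzyme under Rox1, was at 140 and 144 FPKM in Asr1-RING and 113 and 117 FPKM in WT (limma adjusted p = 0.104). In this list 7 genes had an unadjusted p under 0.05, namely FET4, AAC3, HEM13, SUT1, GPD2, ANB1 and OLE1, which is 28% of the list beside 26.4% over all rows and 23.0% over ORF rows; SUT1 also stands in the list of regulators. These 7 were higher in both Asr1-RING libraries than in both WT libraries, which is not independent of their choice by p. Over the whole list of 25 genes, 13 were higher in this way and 6 lower. The shares were 33.0% higher and 27.2% lower over all tested rows, and 34.8% and 23.7% over tested ORF rows. The lower genes were INO1, ARE1, HMG2, AUS1, NCP1 and COX5B, none of them called.

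In 3 further lists no gene was called with all 4 libraries and the scaling used here. The aerobic partners of anaerobic genes, such as CYC1 and COX5A, had a median of 0.03 over 10 genes, none with an unadjusted limma p under 0.05. Other cell wall mannoproteins had a median of 0.05 over 17 genes, of which 3 had an unadjusted p under 0.05, or 17.6% beside 26.4% over all rows. These were SPI1 at 63.7 and 59.3 FPKM in Asr1-RING and 48.5 and 44.5 FPKM in WT (limma adjusted p = 0.0741), FIT2 (limma adjusted p = 0.102) and CCW12 (limma adjusted p = 0.152). After quantile normalization PIR1, SED1 and HSP150 were called higher (limma adjusted p = 0.0287, 0.0367 and 0.0394), and without Asr1-RING replicate 2 FIT2 was (0.0253). TIP1, a cell wall mannoprotein related to the TIR genes, was at 640 and 613 FPKM in Asr1-RING and 584 and 606 FPKM in WT. Silencing factors of chromosome ends had a median of -0.05 over 15 genes and none with an unadjusted limma p under 0.05. Without Asr1-RING replicate 1, SIR2 had a log2 difference of 0.51 and SIR4 of -0.69. Both passed the threshold in that fit, which also called more rows over the whole table than the main fit.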

How the data were processed

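The authors deposited 1 table with an FPKM value per gene and library, made with TopHat2 and Cufflinks on the build sacCer2 per the submitters' processing notes. For versions, settings, annotation, strand and reads with several matches, the choices made are not given in the sources. Value columns were tied to samples by the library names in the labels, with 0 columns unused. Row coordinates are those of the table in sacCer2, with 1 added to each start, because end minus start equalled the R64 gene length in 99.14% of the 6048 rows that matched R64 by identifier. Sequences, distances from chromosome ends and promoters are from the RefSeq assembly R64, by gene identifier, and no coordinate was carried between builds.

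Rows whose 4 libraries averaged 1 FPKM or more were tested on log2(FPKM + 1) with limma 3.58.1 in R 4.3.3. The fit used an intensity trend, and p-values were adjusted after Benjamini and Hochberg over all 6892 rows. Depth was estimated from ORF rows of 350 to 3000 bp at 0.5 to 8.5 fragments, taking 204 bp off each length, the value with the most whole fragments among 190 to 220 bp; 92.3% to 94.6% of 46 to 59 rows were then whole within 0.1, against a median of 15.2% to 18% over all depths scanned. These fragments served as a description. The fit was checked on simulated data. The rule for the PAU, DAN and TIR genes reads names alone, but the families and the gene lists were chosen with earlier results of these data known, so no count over them is independent evidence. All DAN and TIR genes are given with every value, and of the PAU genes the 8 with the smallest p and the 3 highest and 3 lowest; from lists, called genes and those with small p. The genes whose sequences are shown, and PAU1, PAU14, PAU21 and PAU22, were picked after values were seen. List names were matched to the table's gene names or else to RefSeq symbols and synonyms, which placed TDS4 as BRF1, a subunit of the RNA polymerase III factor TFIIIB, FRD1 as YEL047C and AAC2 as PET9; FRDS1, another name of FRD1, had no match of its own. Alternatives were other pseudocounts (0.1 and 5), filters (none, or 10 FPKM), scalings, moderation, a replicate block, subsets of rows, a threshold of 0.1, and each library left out. Python 3.11.15, pandas 2.3.3, numpy 2.4.6, Biopython 1.88 and matplotlib 3.10.9 were also used.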

Additional observations from a re-analysis of the deposited data

How the results depend on the processing

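The count of DAN and TIR genes called higher, 1 (DAN1), was 0 with a mean of at least 10 FPKM, which DAN1 does not reach, 0 when ORF rows alone were tested, and between 0 and 1 with each library left out. DAN1 was higher under every alternative that tested it, with log2 differences from 0.34 (pseudocount 5) to 1.58 (pseudocount 0.1). No PAU gene was called higher, and between 0 and 1 with a library left out, the 1 being PAU23 without Asr1-RING replicate 2. Likewise 0 were called lower, but 1 with median centring (PAU2), 1 at an adjusted p under 0.1 (PAU2), and between 0 and 1 with a library left out, the 1 being PAU9 without Asr1-RING replicate 1. The median of DAN and TIR genes was -0.21 with a mean of at least 10 FPKM, which leaves TIR1 and TIR3.

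Over all rows 130 were called higher and 341 lower. The count higher was 63 with no filter, 216 at a mean of at least 10 FPKM, 66 with median centring, 307 after quantile normalization, 256 with robust moderation, 36 with ORF rows only, 449 at an adjusted p under 0.1, and between 16 and 781 with a library left out. The count lower was 23 with ORF rows only, 176 with identical rows counted once, and between 197 and 553 with a library left out. A fit left with 1 library in a group assumes that it varies like the others. The splits of higher and lower calls were 66 and 448 with median centring and 307 and 316 after quantile normalization. With the replicate number as a block 237 rows were higher; the numbers share no stated batch, the deviations of same-numbered libraries correlated at -0.0712 over 6892 rows, and no call of a PAU, DAN or TIR gene changed.

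Differences near 0 changed sign in genes that were not called. With median centring TIR4 was at -0.06, PAU14 and PAU1 at -0.01 and PAU12 at -0.06, and with quantile normalization PAU10 was at 0.01. With a library left out the ranges were -0.22 to 0.24 for TIR4, -0.05 to 0.32 for PAU4, -0.01 to 0.18 for PAU20, -0.04 to 0.16 for PAU14 and PAU1, -0.09 to 0.01 for PAU13, -0.07 to 0.05 for PAU10 and -0.12 to 0.14 for PAU12. The causes were not tested. Depth limits PAU3, PAU11, PAU15, PAU16 and PAU19 most, which held under 10 estimated fragments in every library.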
